A study of Mus musculus with 15 samples.

Results

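The library made from erythroid cells lacking the α-globin regulatory element Rm (Rm_KO) was set against the libraries lacking one other element of the same enhancer cluster, R1 (R1_KO), R2 (R2_KO), R3 (R3_KO) or R4 (R4_KO). These were chosen by the element named in the labels and are 1 and 4 of the 15 samples of the series. Contacts were measured by NG Capture-C, in which chromatin is cut with DpnII, neighbouring fragments are ligated, and the products are enriched with oligonucleotides for chosen promoters. The 3 viewpoints are the promoters of Hba-a1 with Hba-a2, the α-globin genes (Hba), of Hbb-b1 with Hbb-b2, which make adult β-globin (Hbb), and of Slc25a37. The series also holds 3 control libraries without a named deletion, 3 libraries for each of 2 element pairs deleted together, which are not described here, and 1 library of the embryonic stem (ES) cell line E14.

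All single deletion and control cells came from E12.5 fetal liver of the strain labelled F1 C57Bl6 / CBA. Culture lasted 5 to 7 days, after which cells carrying the mature red cell marker Ter119 were removed and the rest were allowed to differentiate for 18 hours. The labels name the deleted element and no other allele. Whether a culture came from 1 embryo or a pool, whether both alleles were deleted, and whether the 5 deletion libraries were made together are not given in the sources used here. No RNA was measured, so the labelled cell type could be checked only through contacts, given below beside the ES values. With 1 library for each deletion, no difference below has a replicate check and none was tested.

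The mouse α-globin genes are switched on in red cell precursors by a cluster of upstream elements, of which R1, R2, R3 and Rm lie in introns of the neighbouring gene Nprl3 and R4 lies between the Nprl3 promoter and the embryonic gene Hba-x. R1 and R2 are known as the strongest of them, while Rm is known as a mouse element with little enhancer activity on its own. The β-globin genes depend on an upstream locus control region of their own, and Slc25a37 encodes the mitochondrial iron importer that developing red cells use for haem. Neither of these loci carries a deletion, so their viewpoints serve as references here.

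The captured Hba promoters are shown because the viewpoint stands for a pair of near-identical copies. Their RefSeq sequences (GRCm38.p6, plus strand) are given for the 120 bases before each gene's start, chr11:32283552-32283671 for Hba-a1 and chr11:32296372-32296491 for Hba-a2, with the CCAAT box and the TATAAG box in capitals.
Hba-a1: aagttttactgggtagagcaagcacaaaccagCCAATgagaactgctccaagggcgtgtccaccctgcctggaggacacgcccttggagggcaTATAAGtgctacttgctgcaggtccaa
Hba-a2: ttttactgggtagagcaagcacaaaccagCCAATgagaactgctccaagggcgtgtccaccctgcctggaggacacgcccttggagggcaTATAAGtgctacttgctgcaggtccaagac
Shifted by 3 bases, the full RefSeq promoter windows of the copies, of 300 bases each, matched at 297 of 297 aligned bases, so reads from the copies cannot be told apart there, and every Hba value is one of both genes together. The sources used here do not say how such shared reads were counted. Among 32851 RefSeq promoters, CCAAT occurred on either strand in the same 120 bases in 21.3% and TATAAG in 3.41%. The DpnII site GATC occurred in 21.8% of them and in neither copy, and the searched motifs do not overlap in these windows. The sequence of Rm itself is not printed, as no genome of the build of the files, mm9, was used here.

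At Hba, Rm_KO had 607413 reads in a range of 386214 to 713934 over the single deletions. At Hbb it had 394388 in a range of 243961 to 470262, and at Slc25a37 186878 in a range of 109588 to 221235. The control libraries were shallower, with 112875 to 138216 reads at Hba, and lie in another table, so a control value stands beside the single deletions across tables that were made separately. At Hba, 41.9% of Rm_KO reads lay on other chromosomes (Wilson 95% interval 41.7% to 42.0%), against 37.1% in R1_KO, 31.3% in R2_KO, 43.1% in R3_KO and 45.7% in R4_KO, and 33.3% ± 5.46 in control (SD, n = 3). The share at 10 to 50 kb was 17.3% in Rm_KO, against 16.4% in R1_KO, 19.5% in R2_KO, 15.7% in R3_KO and 14.96% in R4_KO, and 20.6% ± 1.99 in control. Rm_KO lay inside the range of the other single deletions on both measures. It was below all of them at 500 to 5000 kb, with 2.91% against 3.07% to 3.93%, and beyond 5000 kb on the same chromosome, with 11.9% against at least 12.9%, and these reads enter the scale used below. R2_KO stood apart with the fewest reads on other chromosomes at all 3 viewpoints. Contacts below are therefore reads per 100000 reads of the viewpoint chromosome more than 2 kb from the viewpoint, called the value, and all coordinates from here on are mm9. Intervals of values are exact Poisson 95% intervals, which cover counting error only.

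**Figure D1:**
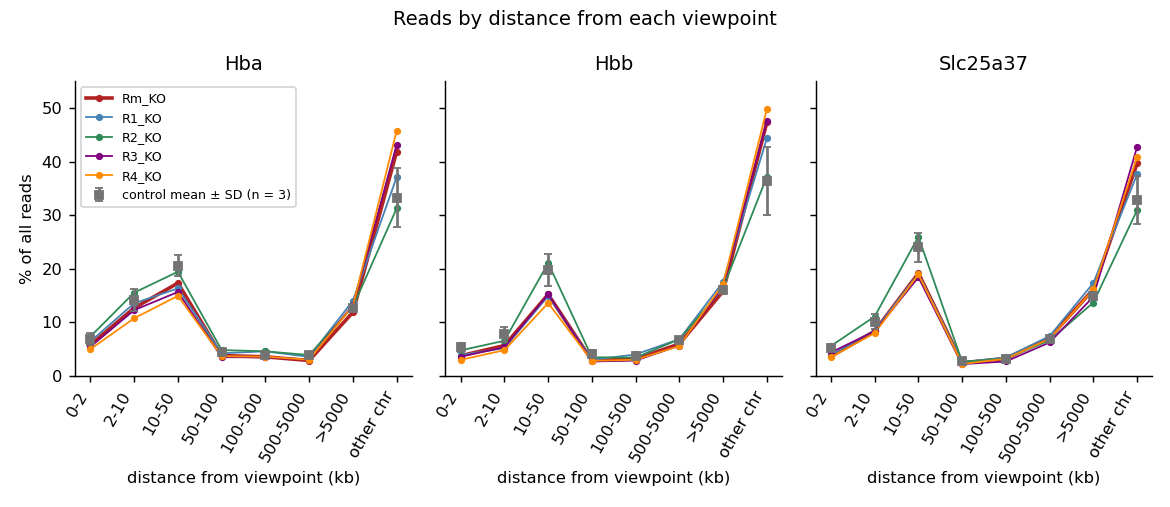
Percent of all reads (y axis) by distance from each viewpoint in kb, or on other chromosomes (x axis), for Rm_KO and the other single deletions (lines, 1 library each) and for control (squares, mean ± SD, n = 3). Rm_KO, at 41.9% on other chromosomes at Hba and 47.3% at Hbb, lies between the other single deletions there, and R2_KO is lowest on other chromosomes at each viewpoint.

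Around Rm, the deep loss of contact in Rm_KO covered 3 fragments, those on the upstream side read mostly within the range of the other single deletions, and of 5 on the side of the genes 3 read below all of them by smaller amounts. The window held 19 DpnII fragments (chr11, 32160753 to 32168370). Its summed value was 4853 (4776 to 4930) in Rm_KO, against 5508 in R1_KO, 6676 in R2_KO, 5949 in R3_KO and 5877 in R4_KO, and 6083 ± 127 in control (SD, n = 3). Rm_KO was below every other single deletion and every control library, at 80.8% of the mean of the other single deletions.

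The Rm block was defined as the fragments of this window where Rm_KO read less than 50% of the other single deletions on average, which gave 3 fragments (chr11, 32164968 to 32166169). Their low values in Rm_KO chose them and are a description. The summed value was 321 (301 to 341) in Rm_KO, against 1044 in R1_KO, 1370 in R2_KO, 1270 in R3_KO and 1207 in R4_KO, and 1250 ± 68.2 in control (SD, n = 3). This was 26.2% of the mean of the other single deletions and 25.7% of the control mean. ES cells, where the α-globin genes are silent, had 427, so the deleted block in Rm_KO read at 75.1% of the ES value.

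The middle fragment of the block, 32165529 to 32165889 (361 bp), lay 16.6 kb from the nearer viewpoint and had the deepest loss. It held 138 reads and a value of 43.8 (36.8 to 51.7) in Rm_KO, against 392 in R1_KO, 544 in R2_KO, 533 in R3_KO and 497 in R4_KO, and 526 ± 53.4 in control (SD, n = 3). It kept 8.90% of the mean of the other single deletions, so reads remained there in the library labelled as lacking Rm. The upstream fragment, 32164968 to 32165528 (561 bp), had 43.5 (36.5 to 51.4) in Rm_KO, against 217 in R1_KO, 245 in R2_KO, 217 in R3_KO and 203 in R4_KO, and 246 ± 37.2 in control. The fragment on the gene side, 32165890 to 32166169 (280 bp), had 233 (217 to 251) in Rm_KO, against 435 in R1_KO, 581 in R2_KO, 519 in R3_KO and 507 in R4_KO, and 478 ± 38.2 in control. It thus kept 45.7% of the mean of the other single deletions, just inside the limit of 50%. No label gives the ends of the deletion, so whether it ends inside this fragment was not tested.

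Just outside the block the values of Rm_KO were near those of the other libraries. The upstream neighbour, 32162767 to 32164967 (2201 bp), had 506 (481 to 531) in Rm_KO, against 519 in R1_KO, 579 in R2_KO, 478 in R3_KO and 501 in R4_KO, and 505 ± 10.6 in control (SD, n = 3). Rm_KO lay within the range of the other single deletions and of the control libraries there. The gene-side neighbour, 32166170 to 32166871 (702 bp), had 541 (516 to 568) in Rm_KO, against 563 in R1_KO, 691 in R2_KO, 628 in R3_KO and 598 in R4_KO, and 667 ± 35.9 in control. There Rm_KO was below every other single deletion and every control library, at 87.3% of the mean of the other single deletions.

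The sides of the block thus differed against the other single deletions. The 11 upstream fragments had ratios of Rm_KO to the mean of the other single deletions from 0.787 to 1.13, with a median of 1.04, and 2 of them, of 20 and 17 bp, lay below all 4 other libraries. The 5 fragments on the gene side had ratios from 0.679 to 0.927, with a median of 0.873, and 3 of them lay below all 4. Against the control libraries 2 of the 5 lay below all 3, 2 lay within their range and 1, 32167510 to 32168370, lay above, with 511 in Rm_KO against at most 507 in control. Values below control were not limited to this side. Of the 19 fragments between the R3 and Rm blocks, 8 lay below all 3 control libraries and 2 above. The lowest ratio on the gene side was that of 32167110 to 32167265 (156 bp). It had 143 in Rm_KO, against 193 in R1_KO, 256 in R2_KO, 178 in R3_KO and 214 in R4_KO, and 196 ± 6.34 in control (SD, n = 3). In the whole window 8 of 19 fragments lay below all 4 other libraries and 0 lay above. Of these 8, 3 were the block fragments, which were chosen for their low values in Rm_KO. A further 2 lay upstream of the block and 3 on the gene side. Over all 762 tested fragments within 500 kb of the viewpoint, 18.4% lay below and 15.9% above. A tested fragment had 100 or more reads summed over the 5 libraries. With 500 or more reads, 6 of 17 window fragments lay below and 0 above, the 3 block fragments again among the 6. Of the 295 Hba fragments of that depth, 11.2% lay below and 21.4% above.

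**Figure D2:**
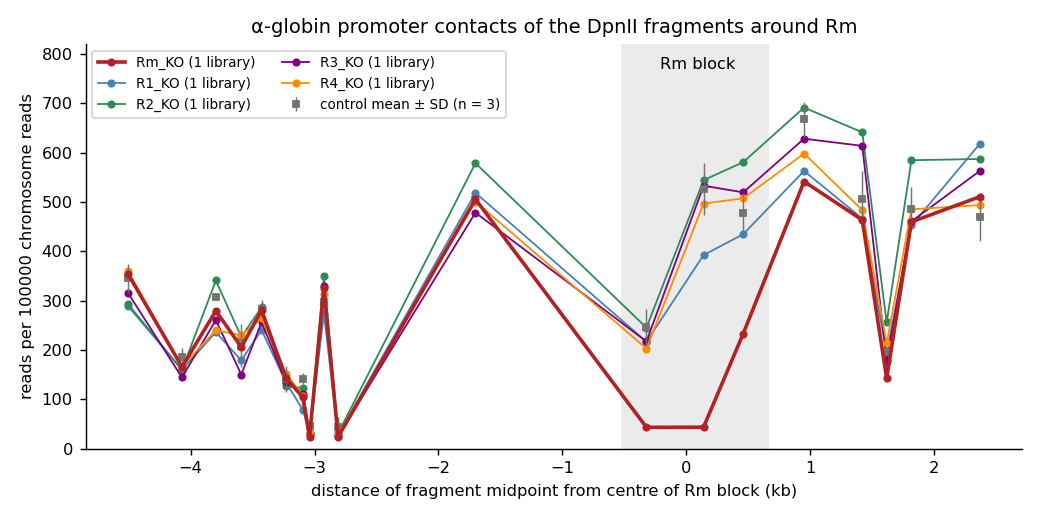
Value of each DpnII fragment (y axis, reads per 100000 chromosome reads) against its distance from the centre of the Rm block in kb (x axis), for Rm_KO and the other single deletions (lines, 1 library each) and control (squares, mean ± SD, n = 3). Rm_KO drops to 43.5, 43.8 and 233 in the 3 shaded fragments, and the 5 fragments on the gene side keep ratios of 0.679 to 0.927.

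Of the kept elements, R2 and R3 read higher in Rm_KO than in the other single deletions that keep them, and R1 and R4 read within the range of those. Each block was chosen in the library lacking that element, as fragments where it read less than 50% of the average of the remaining single deletions, Rm_KO left out, so Rm_KO had no part in the choice. Each ratio is to the mean of the 3 single deletions that keep the element. Ratios of this size also occurred where no element was deleted. Over the mean of the 4 other single deletions, R2_KO had 1.27 at the β-globin locus control region and 1.25 in the Slc25a37 upstream region.

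R1, the most distant element, had a block of 2 fragments (chr11, 32144385 to 32146566). Its value was 1108 (1071 to 1145) in Rm_KO, against 1252 in R2_KO, 1105 in R3_KO and 1074 in R4_KO, and 1089 ± 19.8 in control (SD, n = 3). Rm_KO lay within the range of the other libraries, with a ratio of 0.969, but below all of them with the reads within 500 kb as the scale. R1_KO, which lacks the element, had 456. The fragments of the block differed. The first, 32144385 to 32145278, had 564 in Rm_KO, within the range of the libraries that keep R1 and above every control library (at most 527). The other, 32145279 to 32146566, had 544 in Rm_KO. This was below every library that keeps R1 (565 to 669) and every control library (559 to 587).

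The R2 block held 2 fragments (chr11, 32150623 to 32151881). Its value was 1605 (1561 to 1650) in Rm_KO, against 1207 in R1_KO, 1472 in R3_KO and 1422 in R4_KO, and 1478 ± 133 in control (SD, n = 3). Rm_KO was above the other 3 libraries that keep R2, with a ratio of 1.17, and above all 3 control libraries, whose highest value was 1555. R1_KO was the lowest of them, and without it the ratio was 1.11. R2_KO, which lacks the element, had 102. Both fragments of the block showed this order, with 759 and 846 in Rm_KO, against at most 723 and 759 in the other single deletions.

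R3 had a block of 4 fragments (chr11, 32155867 to 32157248). Its value was 1573 (1529 to 1617) in Rm_KO, against 1046 in R1_KO, 1352 in R2_KO and 1363 in R4_KO, and 1376 ± 26.8 in control (SD, n = 3). The ratio of 1.25 was the highest of the kept elements, and Rm_KO was above all 3 control libraries, whose highest value was 1403. R1_KO was the lowest of the libraries that keep R3, and without it the ratio was 1.16. R3_KO, which lacks the element, had 434. Of the 4 fragments, 3 lay above every other library that keeps R3 and above every control library, and the other, 32156382 to 32156487, had 201 in Rm_KO, against 153 in R1_KO, 213 in R2_KO and 209 in R4_KO, and 196 ± 22.7 in control. When all reads were taken as the scale, the ratio was 1.18 and Rm_KO lay within the range of the other libraries.

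R4 lies between Rm and the genes and had a block of 4 fragments (chr11, 32168682 to 32169921). Its value was 2020 (1971 to 2070) in Rm_KO, against 1758 in R1_KO, 2403 in R2_KO and 2055 in R3_KO, and 2223 ± 319 in control (SD, n = 3). Rm_KO lay within the range of the other libraries, with a ratio of 0.975. R4_KO, which lacks the element, had 565. With the scale and the centre the ratio crossed 1 for both R1, from 0.932 to 1.04, and R4, from 0.900 to 1.03.

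Each block read low in the library lacking it, by construction. Rm_KO kept 26.2% of Rm, against 40.2% of R1 kept by R1_KO, 7.18% of R2 by R2_KO, 32.5% of R3 by R3_KO and 27.4% of R4 by R4_KO, each as a share of the mean of the single deletions that keep the element. These shares depend on the limit that defines a block, and with fragments under 30% the ratio for Rm was 0.122, so no order is read from them. Within the blocks, single fragments kept 8.90% to 45.7% for Rm, 36.9% to 43.8% for R1, 6.74% to 7.59% for R2, 25.7% to 43.0% for R3 and 11.1% to 45.1% for R4.

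**Figure D3:**
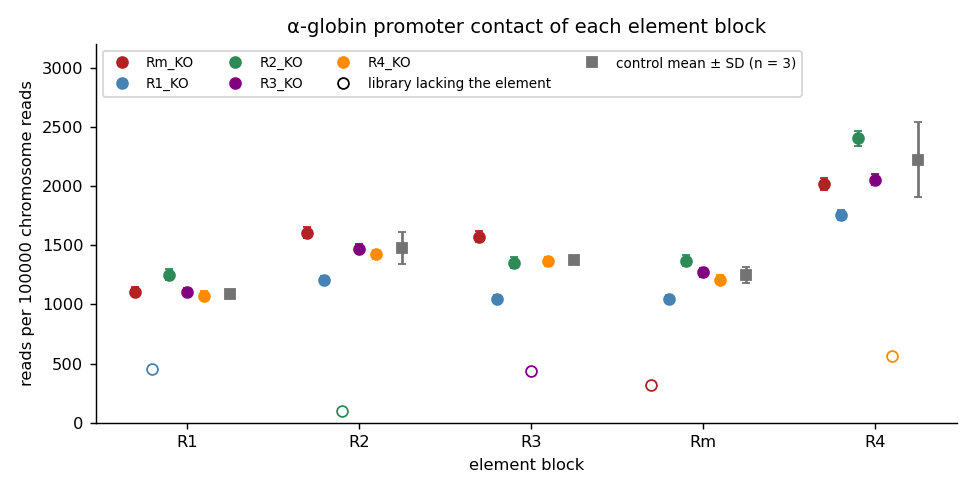
Value of each element block (y axis, reads per 100000 chromosome reads, from 0) for R1, R2, R3, Rm and R4 (x axis), with 1 point per single deletion library and its exact Poisson 95% interval, open where the library lacks the element, and control as squares (mean ± SD, n = 3). Rm_KO is the highest point at R2 (1605) and R3 (1573), within the others at R1 (1108) and R4 (2020), and the lowest at Rm (321).

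Between the elements, the summed contact of the cluster in Rm_KO was higher than in the other single deletions and close to control. From Rm to R4 it was below the other single deletions, and on both sides of Rm it was below control. With all 5 blocks left out, the enhancer cluster (chr11, 32139813 to 32170701, 57 fragments) had 19115 (18963 to 19268) in Rm_KO, against 15740 in R1_KO, 17647 in R2_KO, 17459 in R3_KO and 17889 in R4_KO, and 19630 ± 363 in control (SD, n = 3). Rm_KO was above all 4 other single deletions, with a ratio of 1.11, and below all 3 control libraries, at 97.4% of their mean. The direction thus depended on the libraries it was set against. With all reads as the scale the ratio was 1.07 and Rm_KO lay within the range of the other single deletions. ES cells had 6398, so Rm_KO, like every other single deletion and control library, was above ES cells over the cluster.

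The cluster was also split at the element blocks, a division made after the values were seen. From R1 to R2 the value was 4920 in Rm_KO, against 3529 in R1_KO, 3824 in R2_KO, 4514 in R3_KO and 4533 in R4_KO, and 4971 ± 211 in control (SD, n = 3). From R2 to R3 the value was 4417 (4344 to 4491) in Rm_KO, against 3186 in R1_KO, 3087 in R2_KO, 3477 in R3_KO and 3884 in R4_KO, and 4177 ± 30.5 in control. This segment had the highest ratio of the 6, at 1.30, and Rm_KO was above all 3 control libraries there. Unlike those of the blocks, segment ratios keep the libraries that lack a bordering element. Of the control mean from R2 to R3, Rm_KO had 106%, R1_KO 76.3%, R2_KO 73.9%, R3_KO 83.3% and R4_KO 93.0%. From R1 to R2 these were 99.0%, 71.0%, 76.9%, 90.8% and 91.2%. Rm_KO stayed above all 4 other single deletions in both segments under each of the 4 other scales tried.

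Of 10 tested fragments between R2 and R3, 9 lay above all 4 other single deletions and 6 of those also above all 3 control libraries. All 10 had 500 or more reads, and of the 295 Hba fragments of that depth 21.4% lay above the other single deletions and 11.9% also above the control libraries. Of all 762 tested fragments these were 15.9% and 9.97%. The fragment beside R3, 32155335 to 32155866 (532 bp), had 517 in Rm_KO, against 318 in R1_KO, 403 in R2_KO, 348 in R3_KO and 406 in R4_KO, and 497 ± 18.1 in control (SD, n = 3). A fragment of 143 bp, 32153936 to 32154078, had 359 in Rm_KO, against 239 in R1_KO, 270 in R2_KO, 240 in R3_KO and 278 in R4_KO, and 299 ± 3.13 in control. These have the highest ratios of the segment, both 1.40, and were named after their values were seen.

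Of the segments beside Rm, only the one on the gene side was lower in Rm_KO than in the other single deletions. From R3 to Rm the value was 4636 in Rm_KO, against 4123 in R1_KO, 4534 in R2_KO, 4126 in R3_KO and 4533 in R4_KO, and 4899 ± 36.1 in control (SD, n = 3), a ratio of 1.07. Here Rm_KO was above all 4 other single deletions and below all 3 control libraries, at 94.6% of the control mean. From Rm to R4 the value was 2634 (2578 to 2692) in Rm_KO, against 2813 in R1_KO, 3587 in R2_KO, 3023 in R3_KO and 2725 in R4_KO, and 2961 ± 126 in control. There Rm_KO was below every other single deletion and every control library, at 86.7% of the mean of the other single deletions and 89.0% of the control mean. Of 6 fragments in this segment 3 lay below all 4 other single deletions and 0 above, against 18.4% and 15.9% of all 762 tested fragments. All 6 had 500 or more reads, and of the 295 Hba fragments of that depth 11.2% lay below and 21.4% above. In both of these segments Rm_KO lay within the range of the others under 2 of the 4 other scales. The outer segments, before R1 and after R4, were within the range in Rm_KO, with ratios of 1.07 and 1.15. Against the control mean they were at 98.0% and 89.2%. After R4 Rm_KO was just below all 3 control libraries, with 623 against 624 to 762.

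Over the 56 tested cluster fragments outside the blocks, 21 were above all 4 other single deletions in Rm_KO and 5 below, against 15.9% and 18.4% of all 762 tested fragments. The count over the 56 gave 3 above and 21 below in R1_KO, 19 above and 15 below in R2_KO, 3 above and 10 below in R3_KO, and 10 above and 5 below in R4_KO. Cluster fragments are deeply covered, and 53 of them had 500 or more reads. Of these 53, 21 were above and 3 below, against 21.4% and 11.2% of the 295 fragments of that depth. Of the 56, 16 to 28 were above and 2 to 7 below in Rm_KO under the other scales. With 1 of the other libraries left out, 21 to 29 were above and 5 to 9 below, the 9 without R1_KO.

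Against the control mean, the median ratio of these 56 fragments was 0.986 in Rm_KO, against 0.802 in R1_KO, 0.874 in R2_KO, 0.890 in R3_KO and 0.924 in R4_KO. In Rm_KO 26 of 56 were above the control mean, against 3 in R1_KO, 17 in R2_KO, 8 in R3_KO and 13 in R4_KO. Fragment length moved with this ratio. The 10 fragments under 100 bp had medians of 0.577 in Rm_KO, 0.583 in R1_KO, 0.659 in R2_KO, 0.574 in R3_KO and 0.665 in R4_KO, while the 46 longer ones had 1.00 in Rm_KO, 0.835 in R1_KO, 0.918 in R2_KO, 0.910 in R3_KO and 0.949 in R4_KO. The medians of the short fragments were thus below control in every single deletion library, and 9 of the 10 were below it in Rm_KO and 10 in each of the others. The single deletions lie in another table than control. The part of the table in that difference was not tested.

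**Figure D4:**
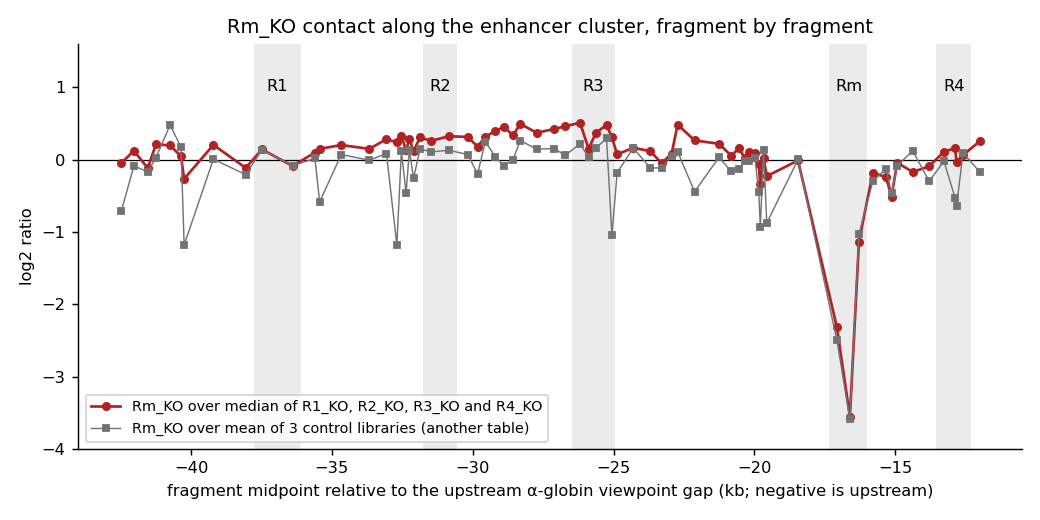
Log2 ratio of Rm_KO (y axis) for each tested fragment of the enhancer cluster against its position relative to the upstream α-globin viewpoint in kb (x axis), over the median of the other single deletions (circles) and over the control mean (squares), with the element blocks shaded. The circles lie above 0 between the R1 and R3 blocks and below 0 between the Rm and R4 blocks, and of the circles only the 3 of the Rm block lie past 1.5-fold.

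Around the genes themselves and outside the cluster, Rm_KO stayed within the range of the other single deletions. The α-globin genes (chr11, 32170702 to 32204979, 53 fragments) had 23526 (23357 to 23696) in Rm_KO, against 23107 in R1_KO, 24485 in R2_KO, 23253 in R3_KO and 21081 in R4_KO, and 22774 ± 1565 in control (SD, n = 3). The ratio was 1.02 and crossed 1 with the scale and the centre, from 0.976 to 1.11. Of 53 tested fragments there, 4 were below and 8 above all 4 other libraries, against 18.4% and 15.9% of all 762 tested fragments. The 4 and the 8 were all among the 51 with 500 or more reads. Of the 295 Hba fragments of that depth, 11.2% lay below and 21.4% above.

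On the upstream side, in the order of the GRCm38.p6 gene table, lie Rhbdf1, Mpg and Nprl3. The upstream genes (32080071 to 32135979) had 7528 in Rm_KO, against 7650 in R1_KO, 8240 in R2_KO, 7034 in R3_KO and 7781 in R4_KO, and 7717 ± 335 in control (SD, n = 3). The far upstream region (31949955 to 32079920) had 1412 in Rm_KO, against 1619 in R1_KO, 1513 in R2_KO, 1322 in R3_KO and 1513 in R4_KO, and 1311 ± 77.3 in control. Downstream (32204980 to 32320310) the value was 6319 in Rm_KO, against 6936 in R1_KO, 6196 in R2_KO, 5690 in R3_KO and 5824 in R4_KO, and 6279 ± 281 in control. In these 3 regions Rm_KO lay within the range of the other single deletions, with ratios of 0.981, 0.947 and 1.03. Downstream it was above all of them with the chromosome reads outside all regions as the scale.

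Single fragments were counted as lower or higher where Rm_KO lay outside the range of the other single deletions and past 1.5-fold of their median. At Hba 85 of 762 fragments (11.2%) were lower and 37 (4.86%) higher in Rm_KO. With each library set against the remaining ones, the lower fragments were 85 in Rm_KO, 41 in R1_KO, 79 in R2_KO, 104 in R3_KO and 78 in R4_KO. The higher ones were 37 in Rm_KO, 109 in R1_KO, 89 in R2_KO, 42 in R3_KO and 47 in R4_KO. In the enhancer cluster the 3 fragments of the Rm block, which the block rule had chosen, were the only ones, and 0 of 56 fragments outside the blocks and 0 of 53 fragments around the genes passed. With the reads within 500 kb as the scale 1 of the 56 was lower, and with the chromosome reads outside all regions as the scale 3 were higher.

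Outside the Rm window these fragments were thinly covered. The 5 lowest had 3 to 6 reads in Rm_KO and lay 123 to 489 kb from the viewpoint, with ratios to the median of 0.115 to 0.182. The 5 highest had 34 to 79 reads and lay 77.6 to 397 kb away. The first of them, 32274957 to 32275416, had 25.1 (19.8 to 31.2) in Rm_KO, against 12.3 in R1_KO, 1.28 in R2_KO, 8.74 in R3_KO and 2.70 in R4_KO. In R2_KO that value stood for 3 reads, and ES cells had 44.1 there.

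Among the 295 fragments whose reads over the 5 libraries came to 500 or more, 5 (1.69%) were lower and 1 (0.339%) higher. Besides the 3 of the Rm block, the lower ones, picked out after their values were seen, were 32227297 to 32227379 and 32130255 to 32130359. The first had 19.0 in Rm_KO, against 48.0 in R1_KO, 31.5 in R2_KO, 32.6 in R3_KO and 23.4 in R4_KO, and 34.4 ± 6.39 in control (SD, n = 3). The second had 27.0 in Rm_KO, against 45.0 in R1_KO, 69.7 in R2_KO, 37.3 in R3_KO and 36.6 in R4_KO, and 46.6 ± 5.76 in control. The higher one, 32084889 to 32085040, had 55.2 in Rm_KO, against 29.3 in R1_KO, 28.5 in R2_KO, 45.2 in R3_KO and 39.0 in R4_KO, and 44.5 ± 12.8 in control. Rm_KO had 60, 85 and 174 reads in these, so the steep losses at this depth were those of the Rm block.

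At the β-globin viewpoint no element was deleted, and the ratios of Rm_KO over its 5 regions ran from 0.935 to 1.12. The locus control region, on chr7 from 110994810 to 111023773, had 23690 (23471 to 23910) in Rm_KO, against 21404 in R1_KO, 28526 in R2_KO, 23610 in R3_KO and 21224 in R4_KO, and 25727 ± 1580 in control (SD, n = 3). The ratio was 1.00, within the range of the others, and it ran from 0.941 to 1.05 with the scale and the centre. Against control, Rm_KO was below all 3 libraries there, at 92.1% of their mean. ES cells had 5352, below every single deletion and control library. The embryonic genes (110980132 to 110994809) had 7550 in Rm_KO, against 7426 in R1_KO, 8162 in R2_KO, 7890 in R3_KO and 7162 in R4_KO, and 8267 ± 571 in control. Rm_KO was again within the range of the other single deletions and below all 3 control libraries, at 91.3% of the control mean.

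The adult β-globin genes (110954816 to 110973053) had 5701 (5595 to 5810) in Rm_KO, against 4668 in R1_KO, 5494 in R2_KO, 5335 in R3_KO and 4895 in R4_KO, and 6481 ± 844 in control (SD, n = 3). Rm_KO was above the other single deletions, with a ratio of 1.12, and within the range of the control libraries. Under 2 of the 4 other scales it lay within the range of the other single deletions. The 3′ flank (110850132 to 110954815) had a ratio of 1.12 and the 5′ flank (111023977 to 111100105) of 0.935, both within the range of the others. The 3′ flank was above all of them under 2 of the 4 other scales. Against the control mean the flanks were at 96.3% and 79.6%. Rm_KO lay within the range of the control libraries at the 3′ flank and below all 3 at the 5′ flank. Of 453 tested fragments 31 (6.84%) were lower and 45 (9.93%) higher in Rm_KO, a total of 76, against 166 in R1_KO, 85 in R2_KO, 67 in R3_KO and 55 in R4_KO. Among those with 500 or more reads, 2.73% were lower and 1.64% higher. The lowest, 111032509 to 111032613, had 24 reads and 12.6 in Rm_KO, against 50.4 in R1_KO, 52.3 in R2_KO, 50.0 in R3_KO and 36.9 in R4_KO. The highest, 110873646 to 110874060, had 64 reads and 33.7 in Rm_KO, against 8.68 in R1_KO, 7.16 in R2_KO, 19.1 in R3_KO and 10.0 in R4_KO. Both rest on fewer than 100 reads in Rm_KO.

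At the Slc25a37 viewpoint the strongest contacts lay in the upstream region (chr14, 69906474 to 69959889). Its value was 30477 (30146 to 30811) in Rm_KO, against 29228 in R1_KO, 38138 in R2_KO, 32139 in R3_KO and 30457 in R4_KO, and 38284 ± 3215 in control (SD, n = 3). Rm_KO lay within the range of the other single deletions, with a ratio of 0.938, and below all 3 control libraries. The gene body (69859913 to 69900081) had 17831 in Rm_KO, against 17634 in R1_KO, 19938 in R2_KO, 18160 in R3_KO and 17659 in R4_KO, and 16986 ± 266 in control.

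The flanks of Slc25a37 were the regions where Rm_KO left the range. The far side (69759957 to 69859912) had 4305 (4181 to 4432) in Rm_KO, against 4011 in R1_KO, 3868 in R2_KO, 3605 in R3_KO and 3998 in R4_KO, and 3281 ± 243 in control (SD, n = 3), a ratio of 1.11. The far upstream region (69959890 to 70060563) had 2332 (2241 to 2426) in Rm_KO, against 2638 in R1_KO, 2461 in R2_KO, 2636 in R3_KO and 2414 in R4_KO, and 2631 ± 106 in control, a ratio of 0.919. Rm_KO was outside the others in both, but it lay within their range under 2 of the 4 other scales at the far side and under 1 of them in the far upstream region. Of 324 tested fragments 21 (6.48%) were lower and 18 (5.56%) higher in Rm_KO, a total of 39, against 24 in R1_KO, 52 in R2_KO, 83 in R3_KO and 31 in R4_KO. Among those with 500 or more reads, 1.81% were lower and 0% higher. The lowest, 69972261 to 69972613, had 7 reads in Rm_KO and a ratio to the median of 0.224, and the highest, 69847930 to 69848342, had 81 reads and a ratio of 2.80.

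**Figure D5:**
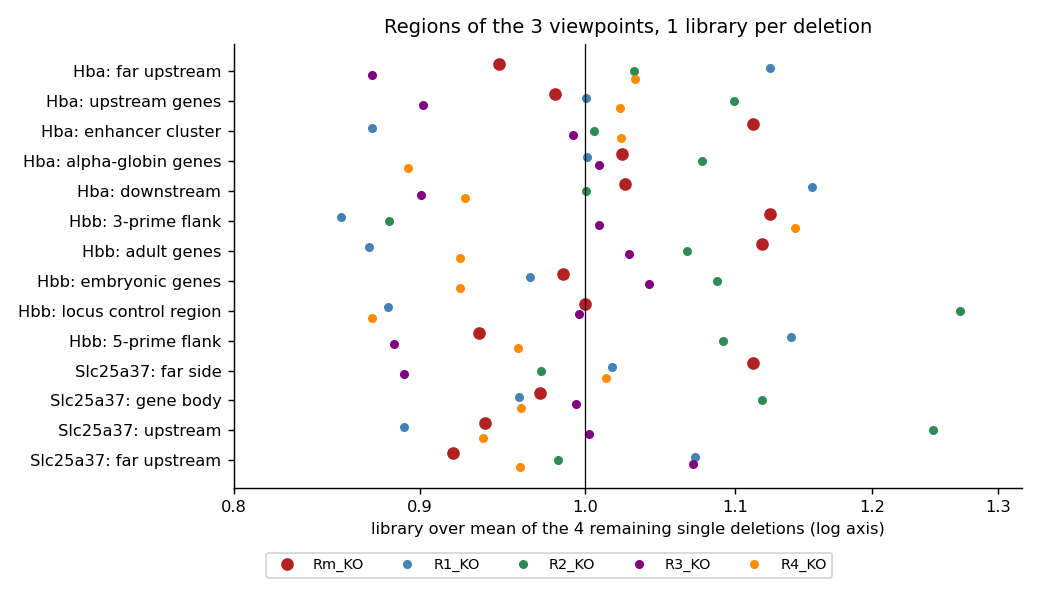
Ratio of each single deletion library to the mean of the 4 remaining ones (x axis, log axis) for the regions of the 3 viewpoints (y axis), with the enhancer cluster counted without the element blocks and Rm_KO as large points. Rm_KO runs from 0.919 to 1.12, is the highest library at the enhancer cluster (1.11), the adult β-globin genes (1.12) and the far side of Slc25a37 (1.11), and the R2_KO points at the β-globin locus control region and the Slc25a37 upstream region lie farthest right.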

How the data were processed

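The files deposited by the authors give unscaled counts of reads for DpnII fragments of mm9. Trim Galore and Bowtie made them, per the submitters' processing notes, and the sources used here give no version of either. Single deletions and ES cells share a table at each viewpoint, and control libraries are in another. The 7 further columns in each table of the controls match no sample and were left out. Viewpoints were taken as gaps of at least 1500 bp in the tables. Each library was scaled to 100000 reads of the viewpoint chromosome more than 2 kb from these gaps. Python 3.11.15 with pandas 2.3.3 and scipy 1.17.1 gave exact Poisson 95% intervals for values, and statsmodels 0.14.6 gave Wilson intervals for shares. The reads have no molecular identifiers. Each interval rests on the reads of 1 library, so the intervals cover counting error only. The interval of a ratio was taken from the Rm_KO reads alone.

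A fragment within 500 kb whose reads summed to at least 100 over the 5 single deletions was counted where Rm_KO lay outside the range of the others and past 1.5-fold of their median. The counting step, which gives no p-value, was tested on simulated data that held counting error only. Spread between libraries was not simulated, so that test cannot say how many fragments such spread would count. Named fragments are those of the Rm block and their neighbours, and, among those counted, the 5 lowest and 5 highest outside the Rm window at Hba and the 3 lowest and 3 highest at each other viewpoint, of which the text prints some. Regions, blocks and lists were chosen with earlier results of these data known. Alternatives were other scales, the median as centre, other block limits, other read and fold limits, bins of 5 kb, the control mean, and leaving out each other library in turn. The gene table is of another build, GRCm38.p6, and served only for gene order and promoter sequence.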

Additional observations from a re-analysis of the deposited data

How the results depend on the processing

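Depth limits single fragments rather than regions: values of fragments under 100 reads over the 5 libraries were not counted, and with 1 library per deletion the spread between cultures is unknown. No paired analysis was possible because each single deletion has 1 library and the results come from no test. Scaling to chromosome reads more than 5 kb away moved none of 25 ratios beyond counting error, while scaling to all reads moved 21, to reads within 500 kb 17 and to chromosome reads outside all regions 20; the cause was not tested. The enhancer cluster, outside the range of the other single deletions at 1.11 of their mean, was at 0.974 of the control mean. Ratios within that range, such as those of R1, R4, the α-globin genes and the Hba far upstream region (0.947, and 1.08 against the control mean), crossed 1 under some settings. With all reads as the scale the ratio was 0.932 for R1, 1.18 for R3, 0.900 for R4, 1.07 for the cluster, 0.976 for the α-globin genes, 0.941 for the β-globin locus control region and 0.919 for Slc25a37 upstream. With reads within 500 kb it was 1.11 for R2, 1.22 for R3, 1.07 for the cluster, 0.988 for the α-globin genes, 0.990 for the locus control region and 0.975 for Slc25a37 upstream. With chromosome reads outside all regions it was 0.283 for Rm, 1.04 for R1, 1.31 for R2, 1.35 for R3, 1.03 for R4, 1.20 for the cluster, 1.11 for the α-globin genes and 0.870 for Slc25a37 upstream. With the median as centre it was 1.00 for R1, 1.13 for R2, 1.16 for R3, 1.09 for the cluster, 1.01 for the α-globin genes, 1.05 for the locus control region and 0.974 for Slc25a37 upstream. Against the control mean it was 1.02 for R1, 1.09 for R2, 1.14 for R3, 0.909 for R4 and 1.03 for the α-globin genes.

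The Rm ratio was 0.122 with fragments under 30% and 0.808 over the whole window, and the R1 ratio was 1.02 with fragments under 70%. With each other library left out in turn the ratios ran from 0.250 to 0.273 for Rm, 0.940 to 1.02 for R1, 1.11 to 1.22 for R2, 1.16 to 1.31 for R3, 0.906 to 1.06 for R4, 1.08 to 1.13 for the cluster, 0.996 to 1.05 for the α-globin genes, 0.966 to 1.07 for the locus control region and 0.908 to 0.996 for Slc25a37 upstream.

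Counts of fragments past 1.5-fold depended on the limits, by their construction. Against 85 lower and 37 higher at Hba, there were 201 and 100 with a minimum of 50 reads, 5 and 1 with 500 reads, 48 and 10 at 2-fold, and 15 and 7 in bins of 5 kb. Against 31 lower and 45 higher at Hbb, there were 64 and 85 with 50 reads, 5 and 3 with 500 reads, 15 and 13 at 2-fold, and 18 and 16 in bins. Against 21 lower and 18 higher at Slc25a37, there were 48 and 47 with 50 reads, 3 and 0 with 500 reads, 5 and 7 at 2-fold, and 5 and 10 in bins. With a library left out, they ran from 82 to 101 lower and 41 to 59 higher at Hba, the 59 without R1_KO, from 32 to 39 and 41 to 53 at Hbb, and from 17 to 30 and 18 to 22 at Slc25a37.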
